A study of Mus musculus with 8 samples.

Results

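The genes described here are 42 members of the Kcn family, which encodes the pore-forming and accessory subunits of potassium channels. They were taken by symbol, through a table that pairs Ensembl identifiers with names, from gene counts of whole mouse kidney. Of the 42 symbols, 41 had a row among the 37583 gene rows of the count data, and 31 passed the filter on low counts that left 15228 genes for testing. Kcnj11, the pore of a nucleotide-sensitive inward rectifier, had no matching row and has no value here. The members were read by class: voltage-gated channels with their silent modifiers and accessory subunits, calcium-activated channels with their close relative Kcnt2, inward rectifiers, and two-pore channels.

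Potassium channels set the membrane voltage of tubule cells, and with it the driving force for sodium, chloride and bicarbonate transport. On the basolateral side they return the potassium that the sodium pump brings in, and on the apical side of the distal nephron they let potassium pass into the urine. Voltage-gated, calcium-activated and two-pore channels open to different signals, and accessory subunits such as the Kcne and Kcnip proteins change the gating of the pore they join without forming one themselves.

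Kidneys of 4 mice carrying floxed Tfap2b alleles and a tamoxifen-inducible Cre recombinase driven by a beta-actin promoter (b-actinCreERT2+TFAP2Bfl/fl, labelled knockout) were compared with kidneys of 4 control littermates (labelled wildtype). Tfap2b codes for the transcription factor AP-2 beta, which is expressed in the distal nephron, and the beta-actin promoter is broadly active, so that Cre was not restricted to 1 nephron segment. The age, the interval after induction, the Cre and floxed alleles of the controls and any tamoxifen given to them are not stated in the labels. The labels call the controls littermates but do not say which samples share a litter or a day, so the tests measure the spread between these libraries.

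Whole-gene counts of Tfap2b were higher in the libraries labelled knockout, 245 ± 14.1 CPM (counts scaled to library size, SD, n = 4) against 103 ± 6.73 CPM. Such counts include exons outside a deleted part and do not check the deletion, so each direction below follows the labels, with wildtype as the reference. Gene counts per library ranged from 13435113 to 17930347. The summed CPM of 8 distal convoluted tubule markers was 2820 to 3110 in the knockout and 7360 to 7770 in the wildtype libraries. Sums of 8 thick ascending limb markers (5770 to 6540 against 9480 to 11600) and of 8 proximal tubule markers (6590 to 10300 against 12100 to 14100) were also lower. Those of 8 intercalated cell (1310 to 1600 against 723 to 870), 6 fibroblast (584 to 936 against 298 to 432) and 8 macrophage markers (234 to 333 against 159 to 186) were higher, as was that of 8 tubular injury genes (268 to 294 against 127 to 157). Of the 8 intercalated cell markers, 6 rose, and Slc4a1 (98.5 against 113 CPM) and Aqp6 (96.1 against 108 CPM) were not called. The principal cell sum of 8 markers overlapped between the groups, at 1120 to 1900 against 761 to 1240 CPM. None of these markers was at 0 in all libraries. In whole tissue, fewer cells of a type and less RNA per cell cannot be told apart. Single libraries also stood apart: knockout 4 held 254 CPM of 10 adrenal cortex genes against 10.4 to 17.1 CPM elsewhere, and knockout 2 held 936 CPM of 7 fat cell genes against 204 to 635 CPM elsewhere. A circadian clock score (log2 output genes minus activator genes) was 0.27 to 2.76 in the wildtype libraries and -1.52 to -0.56 in 3 knockout libraries, with 0.90 in knockout 1.

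Of the 31 tested members, 6 rose, 3 fell and 22 did not pass edgeR's quasi-likelihood test at an adjusted p of 0.05. The 6 that rose were Kcnq1, Kcns3, Kcne1, Kcnip3, Kcnn4 and Kcnj13, and the 3 that fell were Kcnn2, Kcnk1 and Kcnk5. Among all 15228 genes tested, 6.23% rose, 5.7% fell and 11.9% were called in either direction. With library totals in place of trimmed-mean (TMM) scaling, 8 members rose and 2 fell. The rising calls were spread over the voltage-gated, calcium-activated and inward rectifier classes, and the falling ones were a calcium-activated and a pair of two-pore channels. The median log2 fold change of the tested members was 0.10, beside 0.00 for all genes. Groups did not overlap for 13 of the 31 members (41.9%), beside 18.5% of all genes. These counts describe members that passed the filter and were chosen with earlier results of these data known. Of the 21 other Kcn genes tested, 1 rose and 4 fell. Their median log2 fold change was -0.12, and 33.3% of them did not overlap between the groups. Of the 31, 26 reached the level of the filter, 0.619 CPM, in all 8 libraries.

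**Figure D1:**
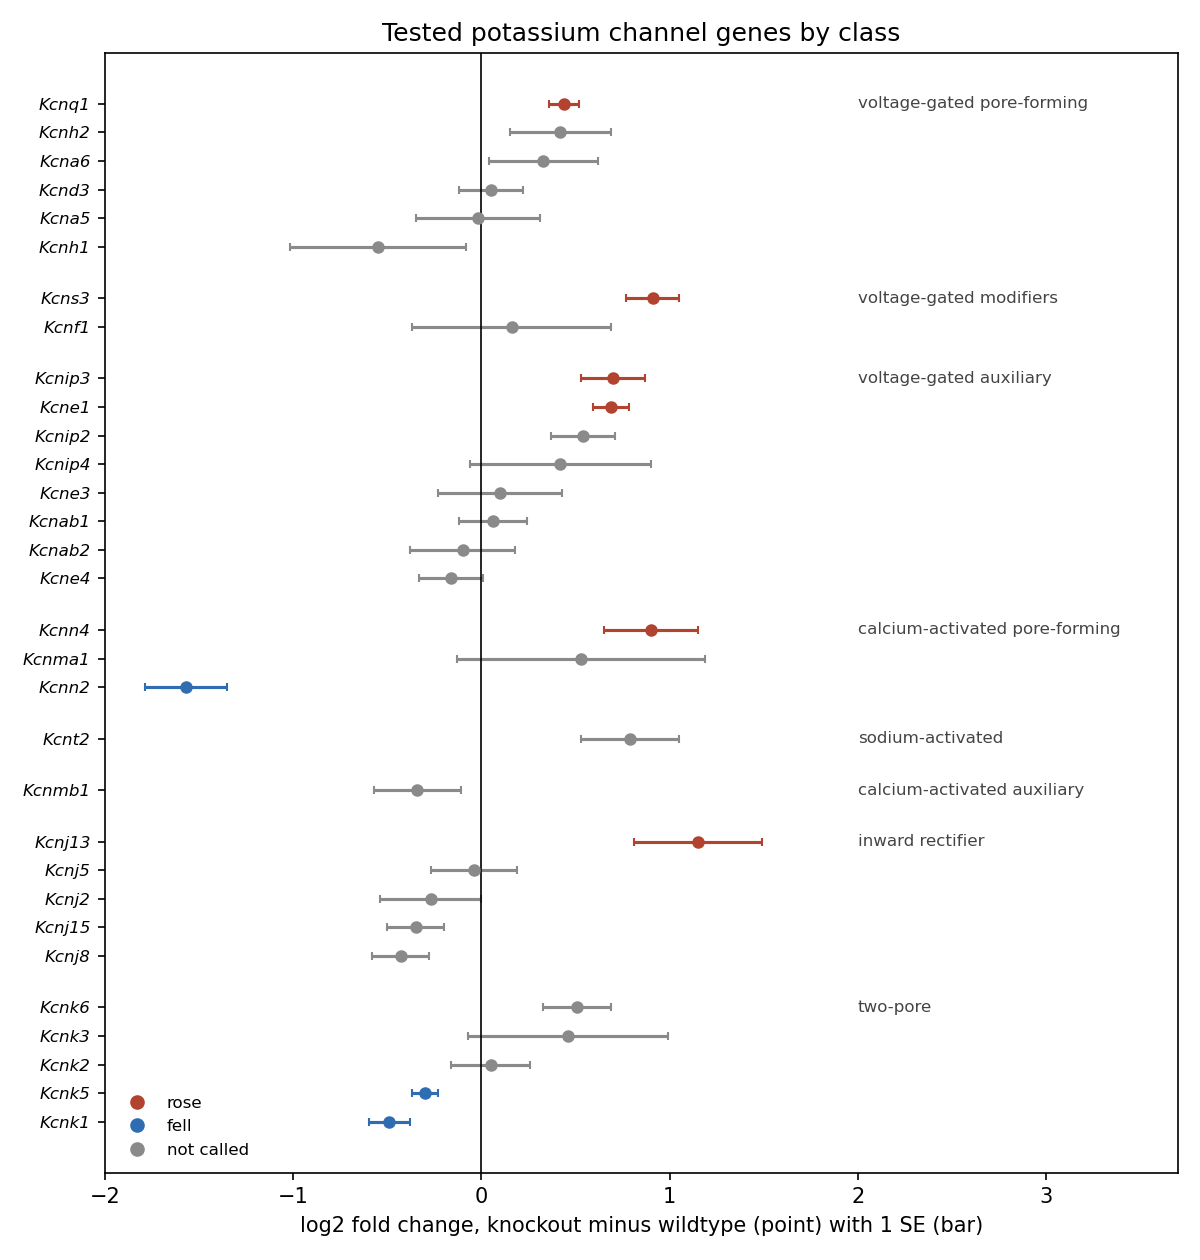
Log2 fold change (knockout minus wildtype, horizontal axis) of the 31 tested members, grouped by class, with bars of 1 SE; red points rose, blue points fell and grey points were not called. The 22 grey points lie between -0.55 and 0.79, and Kcnn2 at -1.57 is the farthest from 0.

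Levels of different genes were compared per length, as TPM (counts per exon length, scaled to a common total). An inward rectifier gene, Kcnj15, and a two-pore gene, Kcnk1, made up most of the members' transcripts. Kcnj15 stood at 398 ± 34.8 TPM (SD, n = 4) in the wildtype and 328 ± 75.0 TPM in the knockout libraries, 42.7% and 38.9% of the members' sum. Kcnk1 stood at 305 ± 40.4 and 229 ± 18.7 TPM. Next in order came Kcnk5, Kcnq1 and Kcne1, with wildtype means of 76.7, 44.6 and 31.2 TPM, and the highest of the other members, Kcnip2, stood at 20.1 TPM in the knockout and 13.1 TPM in the wildtype libraries. By class, the summed level of the voltage-gated pore-forming members was 72.9 ± 6.54 TPM in the knockout and 52.7 ± 4.93 TPM in the wildtype libraries, and that of their accessory subunits 89.6 ± 6.05 and 58.0 ± 5.15 TPM. The two-pore sum was 310 ± 19.9 against 393 ± 45.5 TPM, and the inward rectifier sum 345 ± 76.0 against 416 ± 34.8 TPM. The 4 libraries of each group did not overlap for the first 3 of these sums and overlapped for the inward rectifiers. A single gene gave most of each sum, so the sums do not describe a shift of a whole class. Kcnq1 gave 64.0 TPM in the knockout and 44.6 TPM in the wildtype libraries, and Kcne1 gave 53.4 and 31.2 TPM. In the other 2 sums these genes were Kcnk1 and Kcnj15, at the levels above.

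Among the voltage-gated pores, 1 of 6 tested genes rose. Kcnq1 (ENSMUSG00000009545) encodes the pore that carries slow delayed rectifier current in the heart when joined by Kcne1, and is also expressed in renal and other epithelia. Kcnq1 stood at 74.5, 84.4, 79.9 and 70.1 CPM in knockout libraries 1 to 4 and at 52.7, 53.9, 60.2 and 60.6 CPM in wildtype libraries 1 to 4. Every knockout library lay above every wildtype library. The gene rose 1.36-fold (log2 fold change 0.44 ± 0.079 (SE), edgeR adjusted p = 0.00495). With the clock score included, the log2 fold change was 0.47 ± 0.13 and the adjusted p 0.0612.

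The other 5 tested pores had log2 fold changes of -0.55 to 0.42 with adjusted p of 0.352 to 0.98 by edgeR. Kcnd3, a pore of transient outward current, was at 6.34 ± 1.14 CPM (SD, n = 4) in the knockout and 6.12 ± 0.763 CPM in the wildtype libraries. Kcnh2, the pore of rapid delayed rectifier current, was at 3.49 ± 1.38 and 2.60 ± 0.171 CPM, with 5.14 CPM in knockout 1 and 4.12 CPM in knockout 4 against 2.34 and 2.35 CPM in the other knockout libraries. Kcnh1, a pore of the ether-a-go-go group, was at 2.36 ± 1.41 and 3.46 ± 1.64 CPM. The Shaker-type pores Kcna5 and Kcna6 lay between 1.12 and 1.70 CPM in both groups' means. Kcna2, Kcna3 and Kcnq5 were not tested, with at most 28 counts summed over a group, and Kcna4 had 0 counts in all 8 libraries, where the floor is 3 counts per library.

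Of the modifiers that form no channel alone, 1 of 2 rose. Kcns3 (ENSMUSG00000043673) encodes a silent subunit that joins Kcnb-type pores and shifts their gating. Kcns3 was at 11.9, 9.66, 9.00 and 9.03 CPM in the knockout libraries and at 5.80, 4.97, 5.70 and 4.55 CPM in the wildtype libraries. The lowest knockout library was well above the highest wildtype library. The rise was 1.88-fold (log2 fold change 0.91 ± 0.14 (SE), edgeR adjusted p = 0.00245). The call held in all 18 other settings tried, with log2 fold changes of 0.81 to 1.07. For Kcnf1, the other modifier, the log2 fold change was 0.16 ± 0.53 (adjusted p = 0.881).

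Of 8 tested accessory subunits of voltage-gated channels, 2 rose and none fell. Kcne1 (ENSMUSG00000039639) encodes the single-pass subunit that slows the activation of Kcnq1 channels. Kcne1 was at 50.2, 54.9, 49.8 and 47.4 CPM in the knockout libraries and at 37.5, 30.6, 28.6 and 28.5 CPM in the wildtype libraries. The groups did not overlap, and wildtype 1 was the highest of its group. Kcne1 rose 1.62-fold (log2 fold change 0.69 ± 0.096 (SE), edgeR adjusted p = 0.0013), called in all 18 other settings. Its log2 fold change was 0.51 ± 0.13 (edgeR adjusted p = 0.0458) with the clock score included. Kcnip3 (ENSMUSG00000079056) encodes a calcium-binding protein that modulates Kcnd-type pores and is also known as a transcriptional repressor. Kcnip3 was at 5.96, 5.44, 4.92 and 6.50 CPM in the knockout libraries and at 2.86, 3.95, 4.13 and 3.09 CPM in the wildtype libraries. The groups did not overlap, and the rise was 1.62-fold (0.70 ± 0.17 (SE), edgeR adjusted p = 0.0251). This call was lost in 7 of 18 other settings. Adjusted p was 0.0569 without knockout 2, 0.0751 without knockout 4, 0.0622 without wildtype 1 and 0.0676 without wildtype 4. The log2 fold change was 0.99 ± 0.25 with the clock score included (adjusted p = 0.0528) and 0.56 ± 0.22 without knockout 1 and 4 (0.17).

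Kcnip2, a second Kcnd modulator, narrowly missed the threshold. Kcnip2 was at 13.4, 23.2, 22.4 and 23.9 CPM in the knockout libraries and at 16.8, 13.7, 13.5 and 13.0 CPM in the wildtype libraries. Knockout 1 lay among the wildtype libraries, and the other 3 knockout libraries lay above all of them. The log2 fold change was 0.54 ± 0.17 (SE, edgeR adjusted p = 0.0689) with knockout 1 and 0.70 ± 0.11 (adjusted p = 0.00285) without it. In the fit that included the clock score it was 0.03 ± 0.20 (adjusted p = 0.959). The other 5 accessory subunits tested, Kcnip4, Kcne3, Kcne4, Kcnab1 and Kcnab2, had log2 fold changes of 0.42, 0.10, -0.16, 0.06 and -0.10, and none was called. Kcnip1 was not tested: its 12 counts came from 3 knockout libraries (8, 3 and 1), and all wildtype libraries were at 0.

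Subunits were also set against their pore within each library, on the log2 CPM scale. The log2 ratio of Kcne1 to Kcnq1 was -0.61 ± 0.05 (SD, n = 4) in the knockout and -0.86 ± 0.28 in the wildtype libraries, and the groups overlapped because wildtype 1 stood at -0.49. The ratio of Kcne4, an inhibitory Kcnq1 partner, to Kcnq1 was -4.13 ± 0.18 in the knockout and -3.52 ± 0.28 in the wildtype libraries, with no overlap. Ratios of Kcne3 to Kcnq1, of Kcnip4 to Kcnd3 and of the Kcnab subunits to Kcna5 overlapped between the groups. Kcnip4 was the low one of the tested Kcnip genes, and ratios of the more abundant Kcnip2 and Kcnip3 to Kcnd3 were not taken. The ratios given are descriptions of CPM differences and were not tested.

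**Figure D2:**
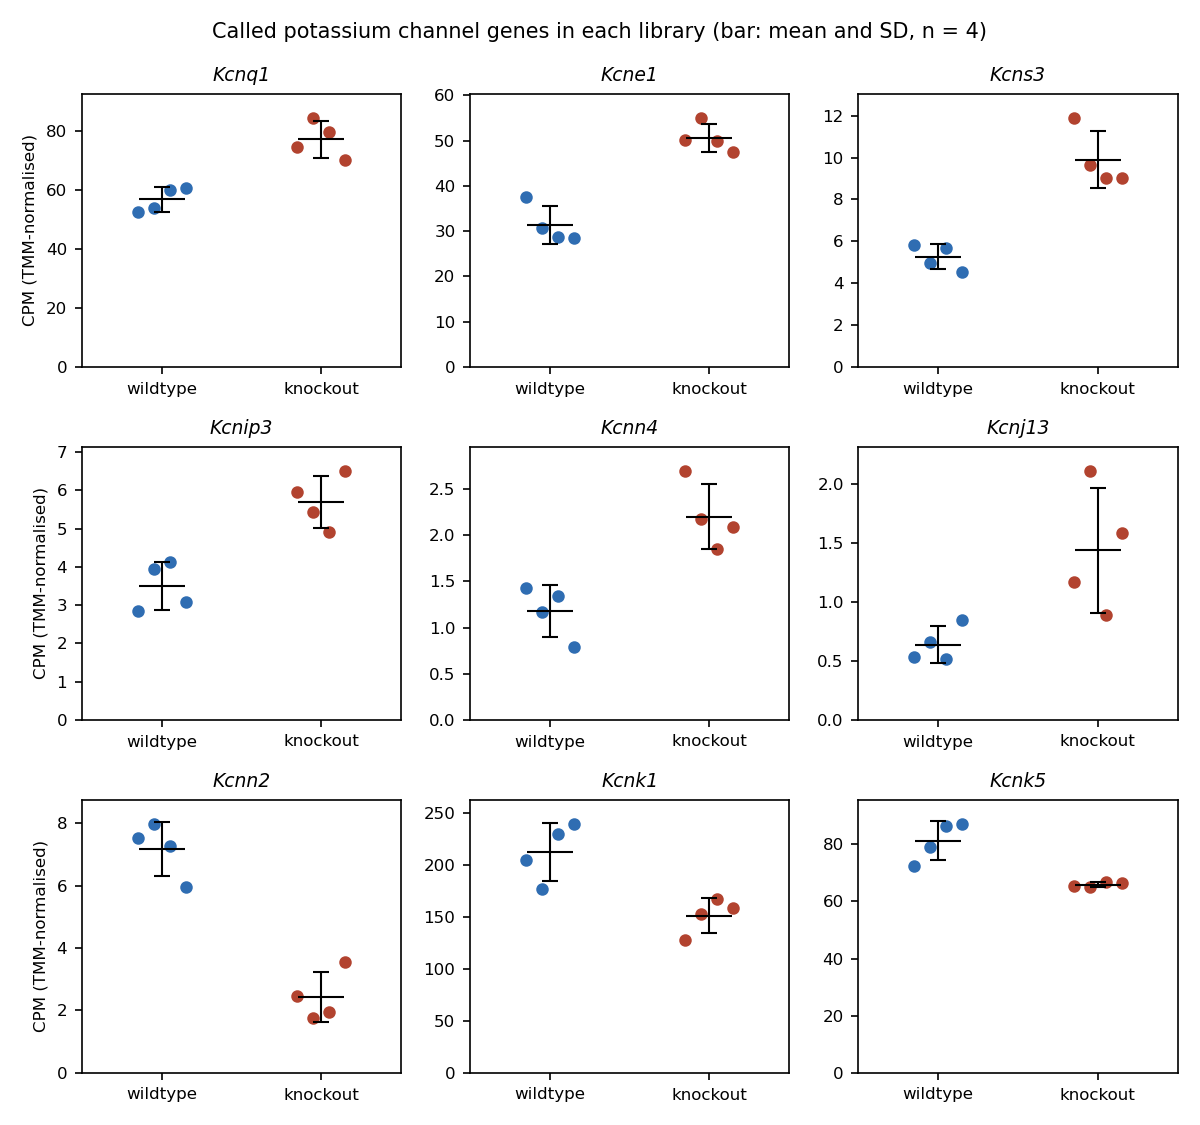
TMM-normalised CPM (vertical axes, from 0) of the 9 called members in each library, 4 wildtype points in blue and 4 knockout points in red, with bars of the mean and SD. In all 9 panels the groups do not overlap, and the gap is narrowest relative to the spread for Kcnj13, where 0.89 CPM in knockout 3 stands next to 0.85 CPM in wildtype 4.

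The calcium-activated class moved in both directions, with 1 of 3 tested pores rising and 1 falling. Kcnn2 (ENSMUSG00000054477) encodes a small-conductance channel that calmodulin opens when intracellular calcium rises. Kcnn2 was at 2.46, 1.76, 1.96 and 3.54 CPM in the knockout libraries and at 7.53, 7.96, 7.28 and 5.94 CPM in the wildtype libraries. The groups were widely separated, with knockout 4 the highest and wildtype 4 the lowest of their groups. Kcnn2 fell to 33.6% of its wildtype level (log2 fold change -1.57 ± 0.22 (SE), edgeR adjusted p = 0.00131). The call held in all 18 other settings, with log2 fold changes of -1.94 to -1.45, and this was the largest change among the tested members in either direction.

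Kcnn4 (ENSMUSG00000054342), the intermediate-conductance channel known from red cells, lymphocytes, macrophages, fibroblasts and secretory epithelia, went the other way at low counts. Kcnn4 was at 2.69, 2.17, 1.85 and 2.09 CPM in the knockout libraries and at 1.43, 1.17, 1.34 and 0.79 CPM in the wildtype libraries. The groups did not overlap. It rose 1.86-fold (log2 fold change 0.90 ± 0.25 (SE), edgeR adjusted p = 0.0401). The call held in 7 of 18 other settings. Leaving out any library but knockout 3 ended the call, with adjusted p up to 0.0948. Knockout 1, the highest library for Kcnn4, was also the highest in the macrophage (333 CPM) and fibroblast (936 CPM) sums. Of those markers, 7 of 8 and 5 of 6 rose. The lymphocyte sum was highest in knockout 2 (68.1 CPM), with 55.3 CPM in knockout 3 and 31.3 CPM in knockout 1. Of its 8 markers, 0 rose. The part of these 3 lists in the Kcnn4 result was not tested.

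Kcnma1, the pore of the large-conductance channel, was low and scattered, at 3.33, 1.46, 0.50 and 1.59 CPM in the knockout and 0.75, 2.78, 0.41 and 0.91 CPM in the wildtype libraries. Its groups overlapped (log2 fold change 0.53 ± 0.66 (SE), edgeR adjusted p = 0.651). Its smooth muscle subunit Kcnmb1 was at 1.40, 1.05, 1.40 and 1.44 CPM in the knockout and 1.96, 1.46, 1.51 and 1.76 CPM in the wildtype libraries. These groups did not overlap, but the difference was not called (-0.34 ± 0.23, adjusted p = 0.375). Smooth muscle and pericyte markers summed to 355 to 428 CPM in the knockout and 379 to 415 CPM in the wildtype libraries. Kcnn3, Kcnmb2 and Kcnmb4 were not tested, with 33, 15 and 8 counts over the knockout and 25, 7 and 1 over the wildtype libraries.

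Kcnt2, which encodes a sodium-activated channel of the same superfamily, was at 5.44, 3.75, 3.24 and 3.83 CPM in the knockout and at 1.36, 3.14, 2.21 and 2.67 CPM in the wildtype libraries. The groups did not overlap, but knockout 3 and wildtype 2 were close. The difference missed the threshold (log2 fold change 0.79 ± 0.26 (SE), edgeR adjusted p = 0.0744). It passed with library totals only (0.0456), with DESeq2 (0.0427) and with the clock score included, where the log2 fold change was 1.37 ± 0.34 (0.0492). It was 0.61 without knockout 1 or without wildtype 1 (adjusted p = 0.151 and 0.141), and 0.57 without knockout 1 and 4 (0.322).

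Among the inward rectifiers, 1 of 5 tested members rose and none fell. The abundant one, Kcnj15 (ENSMUSG00000062609), encodes a basolateral channel of proximal tubule cells that pairs with Kcnj16. Kcnj15 was at 631, 482, 813 and 521 CPM in the knockout and at 778, 825, 810 and 710 CPM in the wildtype libraries. Knockout 3 was within the wildtype range, and the other 3 knockout libraries lay below it. The log2 fold change was -0.35 ± 0.15 (SE, edgeR adjusted p = 0.15), and -0.52 ± 0.11 (adjusted p = 0.0167) without knockout 3. The proximal tubule marker sum ordered the knockout libraries partly alike, with 10300 CPM in knockout 1 and 10200 CPM in knockout 3 against 6590 and 8460 CPM in knockout 2 and 4. The part of these markers in the Kcnj15 result was not tested.

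Kcnj8, the pore of the vascular nucleotide-sensitive channel, was at 7.54, 5.44, 6.37 and 5.27 CPM in the knockout and at 7.61, 9.28, 7.57 and 8.86 CPM in the wildtype libraries. Its groups were separated only by the small step from 7.54 to 7.57 CPM, and the difference was not called (log2 fold change -0.43 ± 0.15 (SE), edgeR adjusted p = 0.0865). Without knockout 1 it was -0.54 ± 0.15 (adjusted p = 0.0354), and with the clock score included -0.28 ± 0.23 (adjusted p = 0.55). The log2 ratio of its sulfonylurea receptor partner Abcc9 to Kcnj8 was 1.82 ± 0.31 (SD, n = 4) in the knockout and 1.20 ± 0.21 in the wildtype libraries, overlapping through knockout 1 (1.37) and wildtype 3 (1.46). Endothelial markers summed to 485 to 563 CPM in the knockout and 569 to 738 CPM in the wildtype libraries, with 2 of 8 falling. Smooth muscle and pericyte markers overlapped between the groups (355 to 428 against 379 to 415 CPM), with 0 of 8 rising and 0 falling. The part of either list in the Kcnj8 values was not tested.

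Kcnj13 (ENSMUSG00000079436), a weak rectifier known from transporting epithelia, was at 1.17, 2.11, 0.89 and 1.59 CPM in the knockout and at 0.53, 0.66, 0.52 and 0.85 CPM in the wildtype libraries. The groups met without overlapping. The rise was 2.22-fold (log2 fold change 1.15 ± 0.34 (SE), edgeR adjusted p = 0.0475). It reached the filter level in 4 knockout but only 2 wildtype libraries, so it passed the filter mainly through the group in which it was higher. The call held in 6 of 17 other settings. In the annotation, 49.1% of its exon bases overlap exons of Gigyf2 on the opposite strand, and the counting was not stranded. How reads in the shared bases were assigned is not given in the sources used here, and the part of Gigyf2 reads in the Kcnj13 count was not tested. Gigyf2 was at 113 ± 3.07 CPM (SD, n = 4) in the knockout and 120 ± 6.59 CPM in the wildtype libraries.

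Kcnj2, a strong rectifier of muscle and vessel, was at 5.99 ± 2.32 CPM (SD, n = 4) in the knockout and 7.21 ± 1.83 CPM in the wildtype libraries, and Kcnj5, a G protein-gated rectifier, at 2.39 ± 0.417 and 2.44 ± 0.525 CPM. Neither was called, with log2 fold changes of -0.27 ± 0.27 and -0.04 ± 0.23. Kcnj14 was not tested, with 8 counts over the knockout and 2 over the wildtype libraries.

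**Figure D3:**
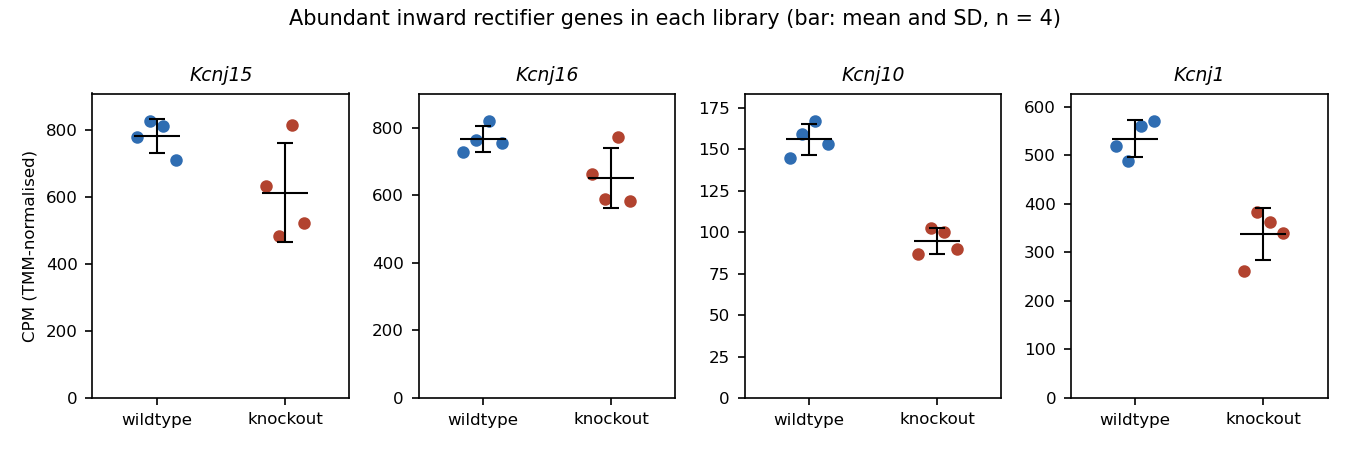
TMM-normalised CPM (vertical axes, from 0) of the member Kcnj15 beside 3 other inward rectifier genes in each library, wildtype in blue and knockout in red, with bars of the mean and SD. Kcnj10 and Kcnj1 separate the groups, whereas Kcnj15 and Kcnj16 overlap, each through the high value of knockout 3.

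Of 5 tested two-pore channels, which carry background current, 2 fell and none rose. Kcnk1 (ENSMUSG00000033998) encodes a weakly conducting channel found along the nephron. Kcnk1 was at 128, 153, 167 and 158 CPM in the knockout and at 204, 177, 230 and 239 CPM in the wildtype libraries. Every knockout library lay below every wildtype library. Kcnk1 fell to 71.2% of its wildtype level (log2 fold change -0.49 ± 0.11 (SE), edgeR adjusted p = 0.0157). The log2 fold change was -0.55 ± 0.18 with the clock score included (adjusted p = 0.12) and -0.41 ± 0.13 without knockout 1 and 4 (0.0994), and the other 16 settings kept the call.

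Kcnk5 (ENSMUSG00000023243) encodes an alkaline-activated channel known for its role in proximal tubule bicarbonate handling. Kcnk5 was at 65.3, 65.0, 66.7 and 66.6 CPM in the knockout and at 72.5, 79.0, 86.5 and 86.9 CPM in the wildtype libraries. The knockout values were nearly equal, and all lay below the lowest wildtype library. Kcnk5 fell to 81.1% of its wildtype level (log2 fold change -0.30 ± 0.071 (SE), edgeR adjusted p = 0.0188). The call was lost in 7 of 18 other settings. Its log2 fold change was -0.20 with library totals only (adjusted p = 0.0857), -0.19 ± 0.11 with the clock score included (0.356) and -0.31 ± 0.096 without knockout 1 and 4 (0.0999). Adjusted p was 0.056 without knockout 2, 0.0582 without wildtype 3 and 0.0546 without wildtype 4. The proximal tubule marker sum was lower as well, with 3 of 8 markers falling. It ranged from 6590 to 10300 CPM over the knockout libraries, while Kcnk5 stayed at 65.0 to 66.7 CPM. Thick ascending limb and distal convoluted tubule sums were also lower, with 6 of 8 and 8 of 8 markers falling. The part of these markers in the Kcnk1 and Kcnk5 results was not tested.

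Kcnk6, a relative of Kcnk1, had non-overlapping groups at low level, 3.51, 3.86, 3.19 and 3.03 CPM in the knockout and 1.88, 2.63, 2.50 and 2.49 CPM in the wildtype libraries. It was not called (log2 fold change 0.51 ± 0.18 (SE), edgeR adjusted p = 0.0969). The mechanosensitive Kcnk2 was at 5.38 ± 1.02 and 5.22 ± 1.36 CPM (SD, n = 4). Kcnk13 was not tested, with 49 counts over the knockout and 13 over the wildtype libraries.

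Kcnk3, an acid-sensitive channel known from the adrenal cortex and brown fat, varied more between libraries than between groups. Kcnk3 was at 4.33, 16.3, 4.42 and 15.6 CPM in the knockout and at 11.3, 4.53, 6.29 and 7.28 CPM in the wildtype libraries. Knockout 2, knockout 4 and wildtype 1 were high, and the wildtype range lay within the knockout range. The log2 fold change was 0.46 ± 0.53 (SE, edgeR adjusted p = 0.626), and -0.29 ± 0.86 (adjusted p = 0.898) once the clock score was included. It was 0.13 ± 0.53 without knockout 2 and 0.19 ± 0.55 without knockout 4. The same 3 libraries had the highest sums of 7 fat cell genes, a list chosen after the Kcnk3 values were seen: 936 CPM in knockout 2, 635 CPM in wildtype 1 and 461 CPM in knockout 4, against 204 to 354 CPM in the other 5. Fabp4 alone gave 507 CPM of the fat cell sum in knockout 2, 373 CPM in wildtype 1 and 256 CPM in knockout 4. Adrenal cortex genes were high in knockout 4 alone. The part of fat and adrenal tissue in the Kcnk3 values was not tested.

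**Figure D4:**
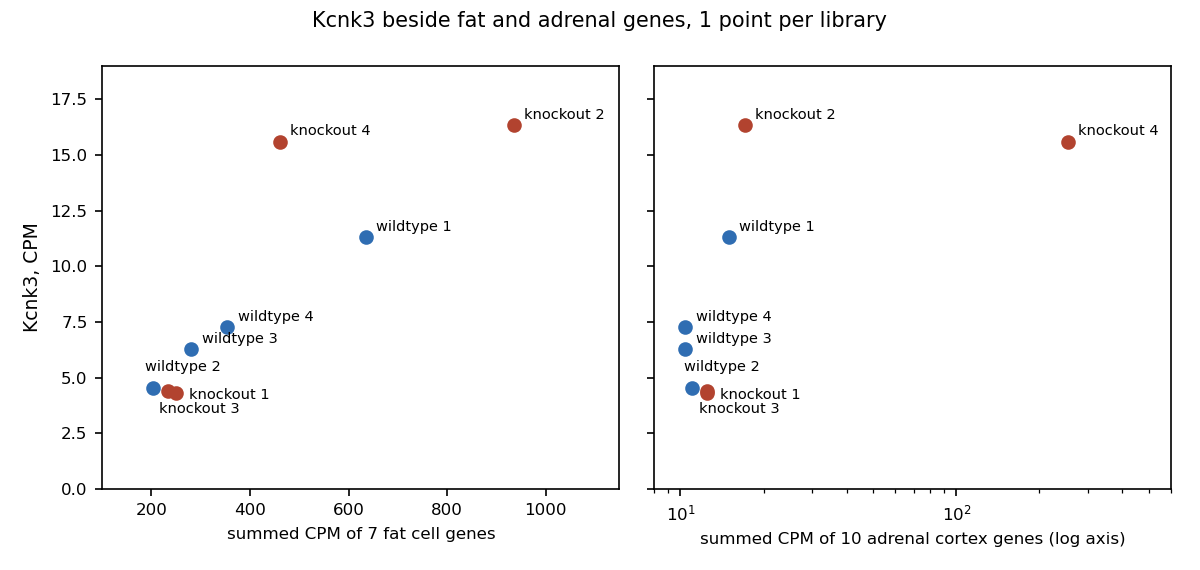
Kcnk3 (CPM, vertical axis) against the summed CPM of 7 fat cell genes (left, linear axis) and of 10 adrenal cortex genes (right, log axis), 1 point per library, knockout in red and wildtype in blue. The 3 libraries with at least 11.3 CPM of Kcnk3 are the 3 farthest right in the left panel, and knockout 4 alone lies apart in the right panel. The fat cell list was chosen after the Kcnk3 values were seen.

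Since Tfap2b encodes a DNA-binding factor, the 250 bases before the annotated start of each member were searched for the AP-2 core GCCNNNGGC, which reads the same on both strands. RefSeq entries (GRCm38.p6) were matched for 35 of the 42 members, and 5 of them (14.3%) held the core, beside 15.4% of all 27025 genes of the table. No entry was matched, and no window searched, for Kcnq1, Kcne1, Kcnn2, Kcnk3, Kcnk6, Kcnj11 and Kcnj14. The searched windows thus cover 4 of the 6 members that rose and 2 of the 3 that fell. The 5 with a match were Kcns3 among the risers, Kcnk5 among the fallers, and Kcnj5, Kcnk2 and Kcnmb4, which were not called or not tested. The windows of Kcns3 and Kcnk5 are shown with the match in capitals, and that of Kcnk1, which fell and holds no match, is shown for comparison. Kcns3 lies at chr12:11150374-11150623 on the minus strand with the match starting at position -106, Kcnk5 at chr14:20181783-20182032 on the minus strand with the match at -99, and Kcnk1 at chr8:125994852-125995101 on the plus strand. Kcns3 has a second annotated start whose window holds no match. A match is a description of letters and not of binding.
Kcns3: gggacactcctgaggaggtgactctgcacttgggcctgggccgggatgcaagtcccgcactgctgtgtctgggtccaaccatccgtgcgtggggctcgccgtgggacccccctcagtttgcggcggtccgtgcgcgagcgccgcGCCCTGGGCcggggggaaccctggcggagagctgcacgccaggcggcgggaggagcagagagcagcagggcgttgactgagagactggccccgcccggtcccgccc
Kcnk5: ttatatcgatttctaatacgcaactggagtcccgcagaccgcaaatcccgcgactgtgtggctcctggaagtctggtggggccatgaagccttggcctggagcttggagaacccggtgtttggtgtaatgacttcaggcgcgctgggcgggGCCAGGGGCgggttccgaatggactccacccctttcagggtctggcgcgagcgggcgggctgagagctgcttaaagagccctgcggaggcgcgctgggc
Kcnk1: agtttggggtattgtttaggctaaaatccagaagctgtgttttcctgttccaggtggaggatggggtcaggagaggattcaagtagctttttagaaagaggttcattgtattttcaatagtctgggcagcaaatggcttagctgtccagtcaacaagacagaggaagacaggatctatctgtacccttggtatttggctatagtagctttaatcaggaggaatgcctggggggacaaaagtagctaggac

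The rest of the family gives the setting. Of 51 other Kcn genes, 21 were tested, of which 1 rose and 4 fell, and of 8 partner genes 5 were tested, of which 1 fell. Kcnj10, the basolateral channel of the distal convoluted tubule, was at 86.9, 102.6, 100.4 and 89.8 CPM in the knockout and at 144.7, 159.4, 167.1 and 153.4 CPM in the wildtype libraries. Kcnj1, the apical secretory channel, was at 262, 384, 364 and 341 CPM in the knockout and at 519, 488, 561 and 571 CPM in the wildtype libraries. Both fell, by 0.72 ± 0.077 and 0.66 ± 0.12 on the log2 scale (SE, edgeR adjusted p = 0.000259 and 0.0043). Kcnj16, which pairs with Kcnj10 and Kcnj15, was not called (-0.23 ± 0.10, adjusted p = 0.159). The log2 ratio of Kcnj16 to Kcnj10 was 2.77 ± 0.20 (SD, n = 4) in the knockout and 2.30 ± 0.03 in the wildtype libraries, without overlap, and that of Kcnj15 to Kcnj10 was 2.66 ± 0.35 and 2.32 ± 0.10, with overlap. All 8 distal convoluted tubule and 6 of 8 thick ascending limb markers fell as well, while 6 of 7 tested principal cell markers rose. The part of these markers in the Kcnj10 and Kcnj1 values was not tested.

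The other non-member calls were Kcnc2, a fast voltage-gated pore, which was higher by 0.88 ± 0.17 on the log2 scale (SE, edgeR adjusted p = 0.00706), Kcnj12 (-0.91 ± 0.23, adjusted p = 0.0264), the sodium-activated Kcnt1 (-5.07 ± 0.31, adjusted p = 3.4e-05) and Lrrc52, an accessory subunit of large-conductance channels (-2.77 ± 0.34, adjusted p = 0.000591). Kcnt1 went down while its relative Kcnt2, above, was higher in the knockout libraries without passing the test.

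The calls on the 9 members were unequal in stability. Kcns3, Kcne1 and Kcnn2 were called in all 18 other settings, Kcnq1 in 17 and Kcnk1 in 16. Kcnip3 and Kcnk5 were called in 11 of 18 settings, Kcnn4 in 7 of 18 and Kcnj13 in 6 of 17. None of the 9 changed direction in any setting. In the fit that included the clock score, 3 members rose (Kcne1, Kcns3 and Kcnt2) and 1 fell (Kcnn2).

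**Figure D5:**
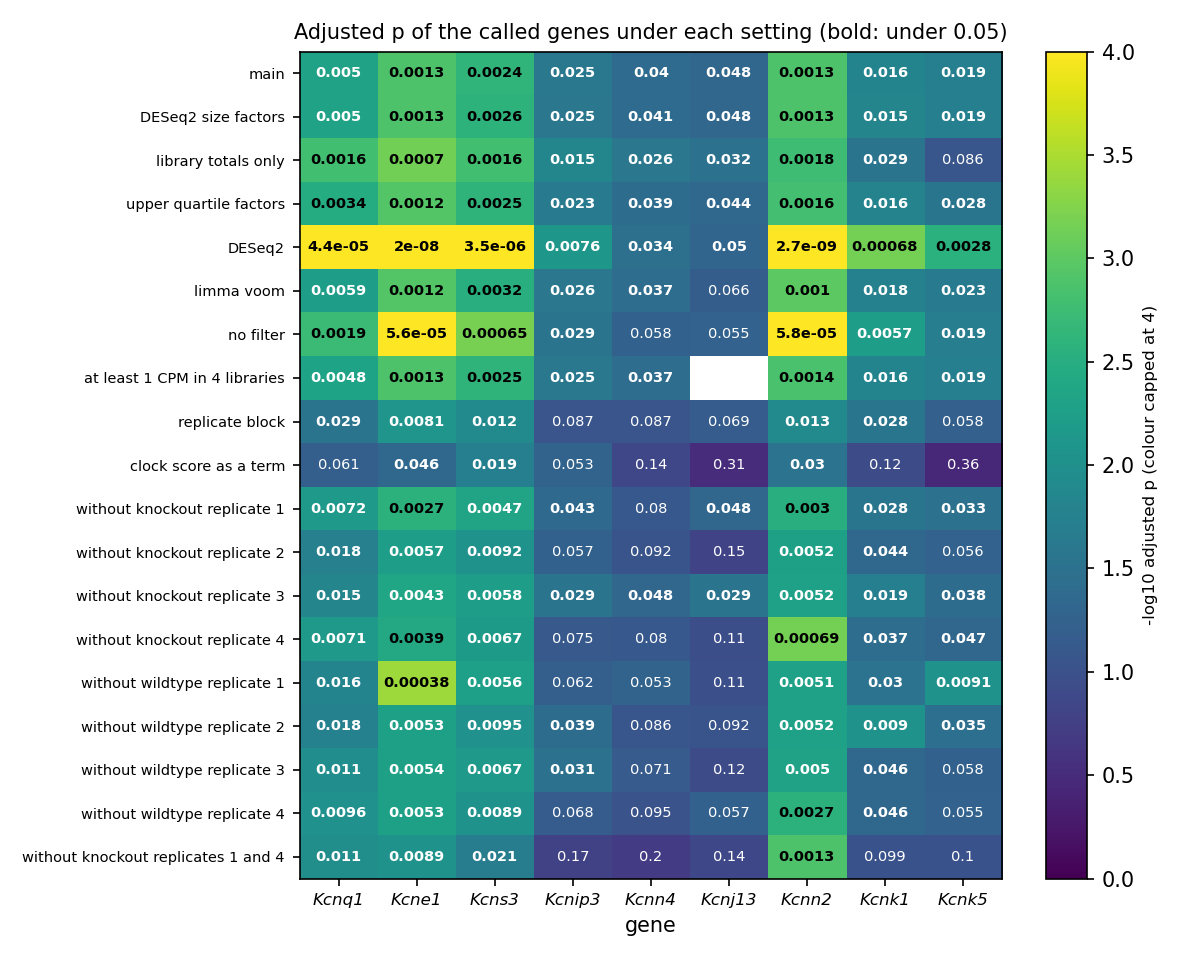
Adjusted p of the 9 called members (columns) under the reported setting and 18 others (rows), coloured by -log10 of the adjusted p up to 4, with values under 0.05 in bold and a blank where a gene was not tested. The columns of Kcne1, Kcns3 and Kcnn2 are bold throughout, and those of Kcnn4 and Kcnj13 are mostly not.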

How the data were processed

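Total RNA of 8 whole kidneys was sequenced. The deposited values are read counts per gene, whole numbers without normalisation, 1 file per library; the tools STAR, HTSeq and edgeR and the build mm9 are named per the submitters' processing notes, while versions and annotation were not given in the sources used here. Counts are named as not stranded, although per the labels' protocols the kit marks strand. In GENCODE M21, genes on the opposite strand that have no count row overlap exon bases of some members. Among called members these were Kcnk1 (8.0%), Kcnn2 (3.8% and 4.3%) and Kcnq1 (3.0%). The largest such overlap was with Kcna6 (39.6%), which was not called. The part of opposite-strand reads in these counts was not tested. The counter's summary rows (13.0% to 16.8% of records without a feature, 2.17% to 2.42% ambiguous, 15.4% to 18.0% not unique) stayed out of library sizes and tests. Gene counts came to 13435113 to 17930347 per library, and a floor of 3 counts covers counting error alone, PCR reads not being independent molecules.

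Symbols came from a gene name table. Genes were kept by edgeR's filterByExpr (minimum count of 10), scaled by TMM, and compared, 4 against 4, by edgeR's robust quasi-likelihood test (R 4.3.3, edgeR 4.0.16), with two-sided p-values adjusted by Benjamini-Hochberg over all 15228 genes. Log2 CPM used a prior count of 2. TPM used exon lengths of GENCODE M21 (GRCm38), a different annotation from that of the mm9 counts, so TPM levels are approximate. Libraries of 1 group differed beyond sampling noise (chi-square over its degrees of freedom 9.04 to 22.9). The fit was tested on simulated data.

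Members, lists and settings were chosen with earlier results of these data known. Full values were given for members with adjusted p under 0.05 and for the most abundant tested member of each class. Of other Kcn and partner genes, called ones and Kcnj1, Kcnj10 and Kcnj16 were named. Other members named with values in every library were chosen after their values were seen: Kcnip2, Kcnma1, Kcnj8, Kcnk3 and Kcnk6, and Kcnh2 and Kcnip1 in part. Settings were DESeq2 size factors, library totals, upper quartile factors, DESeq2 1.42.0, limma voom (limma 3.58.1), 2 other filters, a replicate block, a clock score as a term, each library left out, and knockout 1 and 4 left out. Protein sequences were not used here.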

Additional observations from a re-analysis of the deposited data

Results flagged for a closer look

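In groups of 4 libraries, a single library stood far from the other 3 in 7 of the 76 groups examined, when its gap to the nearest was divided by the whole range; Dixon's 95% critical value for 4 samples was exceeded. Chance gives about 1 such group in 20. Knockout 1 was apart 3 times: lowest for Kcna5 (0.8628) and for Kcnip2 (0.8541), and highest for Kcnt1 (0.9396). Wildtype 1 was the highest of its group for Kcnip2 (0.8346). Knockout 2 was the lowest for Kcnmb1 (0.8816) and the highest for Kcnk2 (0.9132), at 6.91 CPM against 4.79 to 4.98 CPM in the other knockout libraries. Wildtype 3 was the highest for Lrrc52 (0.8826), at 4.37 CPM against 2.79 to 2.97 CPM.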

How the results depend on the processing

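Members that rose numbered 6, and 8 with library totals only or with DESeq2, 3 once the clock score was included, and 3 to 6 when 1 library was left out (3 without knockout 2, knockout 4, wildtype 1 or wildtype 4). Members that fell numbered 3, and 1 once the clock score was included, 1 without knockout 1 and 4, and 2 to 4 when 1 library was left out. Other Kcn and partner genes that rose numbered 1, and 2 with library totals, upper quartile factors, DESeq2 or no filter, 0 with the clock score, and 1 to 2 with 1 library left out. Over all genes, 949 rose and 868 fell, against 1658 and 508 with library totals (which moved the median of all genes to 0.11), 501 and 242 with the clock score, 502 and 410 without knockout 1 and 4, and 588 to 977 and 488 to 963 with 1 library left out. With the replicate number as a block, 3 members rose and 2 fell, and 577 and 517 of all genes. The block ended the calls on Kcnip3 (adjusted p = 0.0871), Kcnn4 (0.087), Kcnj13 (0.069) and Kcnk5 (0.0584). In deviations from the group means, same-numbered libraries correlated at -0.22, -0.21, -0.05 and 0.16, and differently numbered ones at -0.32 to 0.35. These values cannot show whether samples shared a litter or a day. Kcnk3 reversed to -0.29 with the clock score. The cause of these moves was not tested. With the narrower spelling GCCTNAGGC or GCCCNGGGC, 2.9% of members and 3.4% of all genes held the motif, against 14.3% and 15.4%. The protein search planned for the pores was not run. Depth limits the 10 untested members, with at most 49 counts over a group.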
